A study of Caenorhabditis elegans with 24 samples.

Results

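The genes described here encode the factors that start, extend and end protein synthesis on the ribosome in the nematode Caenorhabditis elegans. They were chosen by name, as every gene whose symbol starts with eif-, eef-, ife-, ifg-, iff-, iftb-, inf-, etf- or erfa-, with eif-6 left out. The rule gave 41 of the 20392 genes in the count table, of which 31 were initiation factors, 8 were elongation factors and 2 were release factors. The iff genes encode eIF5A, which is named for initiation but acts in elongation, and were counted with the elongation factors. Because the rule works on symbols, it leaves out the large eIF3 subunit, whose gene is called egl-45, and eIF5B, encoded by iffb-1.

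In initiation, eIF2 brings the initiator tRNA to the small ribosomal subunit in a GTP-bound form that the exchange factor eIF2B renews. The eIF4F complex, made of the cap-binding protein eIF4E (the ife genes), the scaffold eIF4G (ifg-1) and the helicase eIF4A (inf-1), recruits the mRNA, and the many-subunit eIF3 holds the assembly together. In elongation, eEF1A delivers each aminoacyl-tRNA, the eEF1B subunits recharge eEF1A with GTP, and eEF2 moves the ribosome along by a codon. Release factors eRF1 (erfa-1) and eRF3 (erfa-3) recognise the stop codon and free the finished chain. The intestine is the site of yolk protein synthesis in the adult worm and carries a heavy load of translation.

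The study asked what happens in the intestine of fed adults when RNA polymerase I (Pol I), the enzyme that makes ribosomal RNA, is removed. Pol I-AID worms carried qzIs15, in which rpoa-2, the gene for the second largest Pol I subunit, is joined to a degron and GFP under its own promoter, together with ieSi57, which makes the plant F-box protein TIR1. TIR1 control worms carried ieSi57 without the degron, and their labels also list the unc-119(ed3) allele. Auxin lets TIR1 mark the degron-tagged protein for destruction. Both strains therefore had TIR1 and both received auxin. Worms reached day 1 of adulthood after 72 h at 20 °C and were dissected after 0, 12 or 24 h on plates with 1 mM auxin (none at 0 h), which gave 6 groups of 4 libraries, 24 in all. TIR1 was driven in both strains by the promoter of eft-3, an older name of eef-1A.1, which is one of the 41 genes. The strains behind replicate 1 had been outcrossed 1 time, those behind replicates 2 to 4 had been outcrossed 3 times.

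Libraries held 3.18 to 29.5 M counted reads (M, mega; median 20.8 M), of which the 6 vitellogenin genes took 73.7%, so that 1.03 to 9.01 M reads per library were left for all other genes. The shallow ones were TIR1 0 h replicate 3 (3.18 M) and TIR1 24 h replicate 1 (4.68 M). Levels are given in counts-per-million (CPM) on scaled library sizes, and comparisons between genes use CPM per kb of exon. All 11 matched intestine markers were detected and summed to 38000 to 66900 ppm (parts-per-million of the counts outside the vitellogenins), and markers of other tissues stayed at or below 136 ppm except in 3 libraries. Those were Pol I-AID 0 h replicate 4, with germline and oocyte markers at 640 ppm and muscle markers at 162 ppm, TIR1 0 h replicate 1, with muscle markers at 936 ppm and hypodermal markers at 698 ppm, and TIR1 0 h replicate 4, with hypodermal markers at 285 ppm. Beyond these, pharynx markers reached 87.2 ppm in TIR1 24 h replicate 3 and at most 4.86 in the others. The rpoa-2 mRNA averaged 1.06 ± 0.274 CPM in Pol I-AID, against 0.394 ± 0.194 CPM in TIR1 libraries at 24 h (SD, n = 4 each). Its mean was also higher in Pol I-AID before auxin, at 0.853 ± 0.394 CPM against 0.404 ± 0.303 CPM. At 12 h the means were 1.33 ± 0.237 CPM and 0.586 ± 0.585 CPM. Auxin acts on the protein, so the mRNA level does not show whether depletion worked. In dissected tissue, fewer cells of a type and less RNA per cell cannot be told apart.

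As classes, the elongation factor mRNAs exceeded the others by far, though 2 of the 8 genes, eef-1B.2 (7.5 CPM per kb) and iff-1 (1.43), lay below the initiation gene inf-1. The 8 elongation genes took 5.66% of all counts outside the vitellogenins, against 0.0364% for the 31 initiation genes and 0.00494% for the 2 release genes. eef-2, which encodes the translocase eEF2, held 70.8% of all member counts, and eef-2 together with eef-1G, a subunit of the eEF1B exchange complex, held 88.6%. Per kb of exon, eef-2 averaged 3790 ± 680 CPM (SD over 24 libraries), eef-1G 1830 ± 213, the exchange factor gene eef-1B.1 691 ± 194 and eef-1A.1 522 ± 85. The ranges of eef-1B.1 (412 to 1050) and eef-1A.1 (376 to 761) overlapped, so their order is not firm. The second eEF1A gene, eef-1A.2, followed at 61.2 ± 13.5 and the eIF5A gene iff-2 at 43.3 ± 8.02, and these ranges overlapped too. Among initiation factors only inf-1 stood above 10 CPM per kb, at 19.1 ± 5.46. The 3 eIF2 subunits lay close together at 1.98 to 2.79 CPM per kb, whereas the eIF3 subunits covered 0.0638 to 3.45 and the eIF2B subunits 0.0796 to 1.92.

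**Figure D1:**
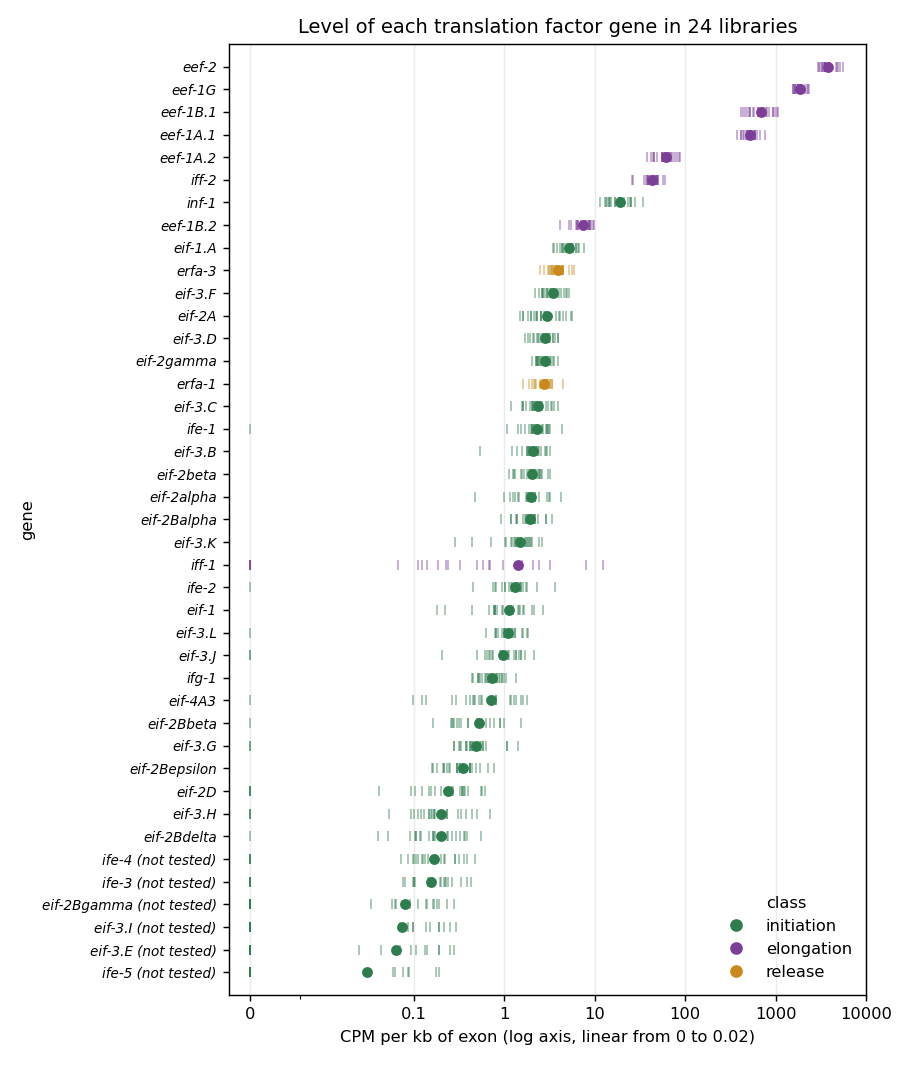
Level of all 41 translation factor genes, in CPM per kb of exon on a logarithmic axis (linear near 0), with a dot at the mean of 24 libraries and a tick for each library. Elongation genes fill the upper end, from 3790 CPM per kb for eef-2, and the 6 genes not tested, all initiation factors, fill the lower end.

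Counts decided what could be tested. Of the 41 genes, 35 passed the filter on low counts: 25 of 31 initiation factors and all elongation and release factors. The 6 that did not were the eIF2B subunit eif-2Bgamma, the eIF3 subunits eif-3.E and eif-3.I and the eIF4E genes ife-3, ife-4 and ife-5, none with more than 12 counts in any library. ife-5 had no count in 17 of 24 libraries, eif-3.E and eif-3.I in 13 each and eif-2Bgamma in 10. If counts are independent, a count of 0 allows a level of up to 3 counts, which is 0.0919 to 0.764 CPM depending on the library. This limit covers counting error only, and it is too low where both mates of a read pair were counted. Among the tested initiation genes ife-1 (2.28 CPM per kb) and ife-2 (1.33) were the eIF4E genes with counts enough to compare.

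To ask how the factors differed with Pol I loss, Pol I-AID was compared with TIR1 at each time by edgeR's quasi-likelihood test over 6903 genes, with p-values adjusted over all of them (FDR) and a call at FDR under 0.05. At 0 h no member differed by this test, against 0.217% of all genes; 2 members had an unadjusted p under 0.05, and DESeq2 called 0. At 12 h, 3 of 35 members were higher in Pol I-AID and 0 lower, that is 8.57% called against 5.39% of all genes, of which 2.96% were higher and 2.43% lower. At 24 h, 5 of 35 were higher and 0 lower, 14.3% against 13.8%, so the share of members called was close to that of all genes, while of all genes 7.34% were higher and 6.45% lower. Under the study's rule, which adds a change of at least 2-fold, 1 member was called at 12 h and 2 at 24 h, against 2.46% and 7.71% of all genes. The median log2 fold change of the members was 0.04 at 0 h, 0.11 at 12 h and 0.18 at 24 h, beside 0.04, -0.01 and 0 over all genes tested. Without iff-1, whose counts rest on Pol I-AID libraries, 4 of 34 members (11.8%) were called at 24 h and the median was 0.14.

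**Figure D2:**
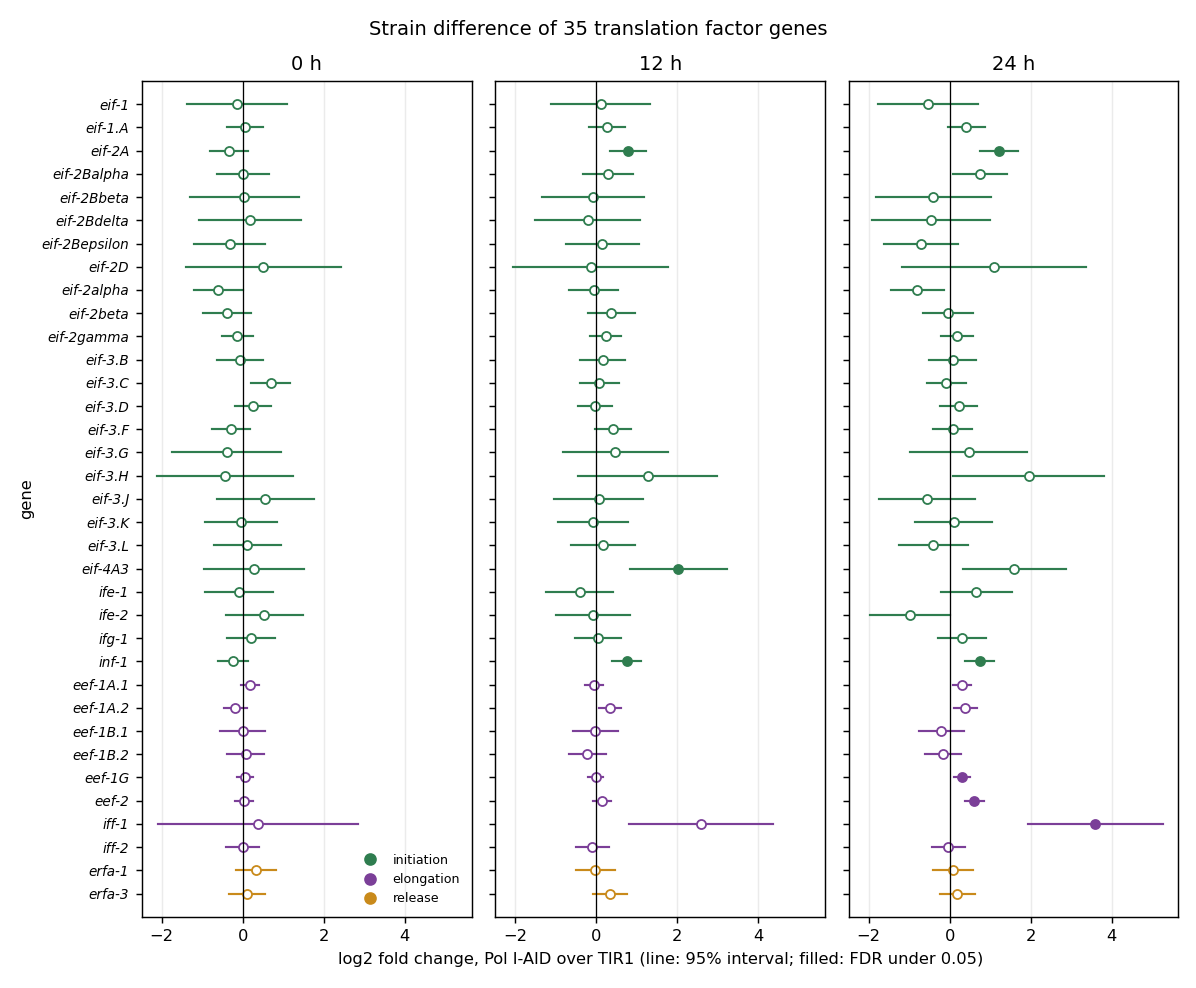
log2 fold change of Pol I-AID over TIR1 at 0, 12 and 24 h for the 35 tested genes, with 95% intervals and filled dots for FDR under 0.05. No dot is filled at 0 h, 3 initiation factors are filled at 12 h, and eif-2A, inf-1, eef-1G, eef-2 and iff-1 are filled at 24 h.

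By class, eif-2A and inf-1 were called at both times and the other members at 12 or 24 h alone. The strain difference at 24 h was not tested against that at 12 h. At 12 h all 3 called members were initiation factors (3 of 25, 12%, against 5.39% of all genes, median of the class 0.15). At that time 0 of 8 elongation factors passed, with 2 of them under an unadjusted p of 0.05, 1 of them (iff-1) called by DESeq2 and a class median of -0.01. At 24 h, 2 of 25 initiation factors (8%, class median 0.1) and 3 of 8 elongation factors (37.5%, class median 0.3) were higher. Of all genes 13.8% were called at 24 h and 7.34% were called higher. Without iff-1, 2 of 7 elongation factors (28.6%) were higher, with the same median of 0.3. Neither release factor was called at any time. By libraries that did not overlap, 5 of 35 members were wholly higher in Pol I-AID at 12 h against 5.79% of all genes and 7 of 35 at 24 h against 10.6%. The 5 at 12 h split differently from the calls, into the initiation factors eif-2A and eif-4A3, the elongation factors eef-1A.2 and iff-1 and the release factor erfa-3. No member was wholly lower at either time, against 4.81% and 7.21% of all genes.

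The strain difference itself changed over time for a few members. Between 0 and 12 h the interaction was called for 2 of 35 members, both higher, against 2.94% of all genes (1.88% higher and 1.06% lower), and between 0 and 24 h for 3 of 35, all higher, against 7.66% (4.24% higher and 3.42% lower). These were the initiation factors eif-2A and inf-1 in both intervals and eef-2 to 24 h. With the 2-fold rule 1 member, eif-2A, was called in each interval, against 2.07% and 5.88% of all genes.

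eif-2A encodes eIF2A, a protein apart from the eIF2 complex that in mammals can bring initiator tRNA to the ribosome. At 0 h its level was 4.08, 3.14, 4.63 and 4.84 CPM in the Pol I-AID libraries, against 5.84, 3.8, 5.31 and 6.13 CPM in TIR1. After 12 h Pol I-AID libraries had 10, 8.42, 9.24 and 6.13 CPM and TIR1 libraries 4.83, 4.1, 5.35 and 5.26 CPM. After 24 h they had 11.4, 11.7, 8.54 and 7.83 CPM against 3.31, 5.72, 3.34 and 4.44 CPM. The groups overlapped before auxin, and every Pol I-AID library stood above every TIR1 library at both later times. The log2 fold change was -0.33 ± 0.22 (SE) at 0 h (FDR = 0.705), 0.79 ± 0.21 at 12 h (1.73-fold, FDR = 0.028) and 1.21 ± 0.22 at 24 h (2.31-fold, FDR = 0.000482). Relative to 0 h, the difference between the strains rose by 1.12 ± 0.31 at 12 h (FDR = 0.0433) and by 1.54 ± 0.31 at 24 h (FDR = 0.00235).

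The 24 h difference of eif-2A stayed called under every alternative tried, with FDR from 1.83e-05 to 0.0176. The 12 h call was lost when any 1 of Pol I-AID 12 h replicates 1, 2 and 3 or TIR1 12 h replicates 1 and 2 was left out, with log2 fold changes of 0.69 to 0.8 and FDR up to 0.114. Among the strains outcrossed 3 times, that is without replicate 1, the values were 0.7 at 12 h (FDR = 0.219) and 1.06 at 24 h (FDR = 0.0176), and the interactions were 0.94 (FDR = 0.411) and 1.3 (FDR = 0.0621). The interaction to 12 h lost its call in 19 of 32 alternatives, at 0.94 to 1.27. The strains outcrossed 1 time had 1 library per group and gave no value of their own.

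inf-1 encodes eIF4A, the helicase that unwinds the mRNA leader for the scanning ribosome. Its levels at 0 h were 33, 24.2, 24.4 and 28.1 CPM in Pol I-AID, against 31.3, 31.4, 31.6 and 35.1 CPM in TIR1. They were 57.4, 41.9, 46.8 and 31.1 CPM at 12 h, against 27.9, 21.5, 22.3 and 33.6 CPM in TIR1. They were 41.7, 39.3, 41.5 and 31.3 CPM at 24 h, against 19.3, 23.1, 23.9 and 25.3 CPM in TIR1. At 12 h Pol I-AID replicate 4 lay inside the TIR1 range, and at 24 h the groups did not overlap. The log2 fold change was -0.24 ± 0.17 at 0 h (FDR = 0.734), 0.75 ± 0.17 at 12 h (1.68-fold, FDR = 0.00803) and 0.74 ± 0.17 at 24 h (1.67-fold, FDR = 0.00443). The interaction was 0.99 ± 0.24 to 12 h (FDR = 0.0204) and 0.98 ± 0.24 to 24 h (FDR = 0.0119). Without replicate 1, the strain difference was 0.64 at 12 h (FDR = 0.0882) and 0.63 at 24 h (FDR = 0.0442). Without replicate 3 of every group, the 24 h values were 0.68 for the strain difference (FDR = 0.0644) and 0.87 for the interaction (FDR = 0.143). Leaving out Pol I-AID 12 h replicate 1 alone gave 0.6 at 12 h (FDR = 0.0548). The interaction to 12 h lost its call without Pol I-AID 0 h replicate 2, Pol I-AID 12 h replicate 1 or TIR1 12 h replicate 2 or 3, at 0.84 to 0.94 and FDR of 0.0526 to 0.0671.

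Since inf-1 made up a large part of initiation factor counts, the sum of the class was read with and without it. All 31 initiation genes summed to 117 ± 14.9 CPM in Pol I-AID, against 88.8 ± 7.84 CPM in TIR1 at 12 h, and to 101 ± 7.29 and 76.3 ± 5.6 CPM at 24 h (SD, n = 4 each). The groups overlapped at 12 h (96 to 131 against 81.7 to 98) and not at 24 h (92.8 to 110 against 68.2 to 80.4). At 0 h the sums were 90.1 ± 10.8 CPM in Pol I-AID, against 93.5 ± 5.08 CPM in TIR1. Without inf-1 the sums were 72.6 ± 5.76 in Pol I-AID, against 62.5 ± 2.39 CPM in TIR1 at 12 h, and 62.5 ± 4.95 and 53.4 ± 3.21 CPM at 24 h. These groups did not overlap at 12 h (64.9 to 78.9 against 60.2 to 64.7) and overlapped at 24 h (56.2 to 68.1 against 48.9 to 56.4). Before auxin the sums without inf-1 were 62.7 ± 6.66 CPM in Pol I-AID, against 61.1 ± 4.76 CPM in TIR1.

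eif-4A3, an eIF4A relative best known as the RNA clamp of the exon junction complex, was the third initiation gene called at 12 h, from low counts. Pol I-AID libraries held 1.6, 1.44, 2.24 and 1.5 CPM at 12 h (30 to 42 counts), against 0.659, 0.332, 0.154 and 0.523 CPM in TIR1 (4 to 14 counts). At 24 h they held 1.71, 2.01, 1.92 and 0.566 CPM, against 1.02, 0.124, 1.02 and 0.174 CPM, and at 0 h 0.689, 0.583, 0.368 and 0.95 CPM, against 0.478, 0.598, 0 and 0.721 CPM. The groups were apart only at 12 h. Its log2 fold change was 2.03 ± 0.57 at 12 h (FDR = 0.0334) and 1.6 ± 0.6 at 24 h (FDR = 0.0797). The 12 h call was lost without any 1 of the 4 Pol I-AID libraries or without TIR1 replicate 2, 3 or 4, with FDR from 0.0539 to 0.118. The 24 h value passed without Pol I-AID 24 h replicate 4 (1.86, FDR = 0.047) or TIR1 24 h replicate 3 (2.42, FDR = 0.0304).

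No tested subunit of eIF2, eIF2B or eIF3 was called in a strain comparison. The 3 eIF2 subunits had log2 fold changes of -0.06 to 0.37 at 12 h and of -0.81 to 0.18 at 24 h. At 24 h eif-2alpha, the subunit whose phosphorylation slows translation, had -0.81 ± 0.31 (FDR = 0.0925), while eif-2beta had -0.04 ± 0.29 and eif-2gamma 0.18 ± 0.19. Of the 4 tested eIF2B subunits, 2 had positive values at 12 h and 1, eif-2Balpha, at 24 h, with 0.74 ± 0.32 (FDR = 0.135). The 9 tested eIF3 subunits ranged from -0.08 to 1.27 at 12 h and from -0.56 to 1.95 at 24 h, with medians of 0.16 and 0.07. Their upper end was eif-3.H, with 2 to 19 counts per Pol I-AID library at 24 h, where the difference of 1.95 ± 0.89 gave FDR = 0.159. When the count filter was run without TIR1 0 h, eif-3.H was the 1 member that no longer passed.

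In eIF4F, the scaffold gene ifg-1 had 0.04 ± 0.27 at 12 h and 0.3 ± 0.28 at 24 h. The eIF4E genes went opposite ways at 24 h without passing the test, with 0.66 ± 0.41 for ife-1 (FDR = 0.333) and -0.98 ± 0.47 for ife-2 (FDR = 0.18). For ife-2, whose TIR1 mean was 1.85 CPM, the 95% interval of -1.96 to 0 ran from a large decrease to no difference. The remaining initiation genes, eif-1, eif-1.A and eif-2D, had values of -0.53 to 1.09 at 24 h and were not called.

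**Figure D3:**
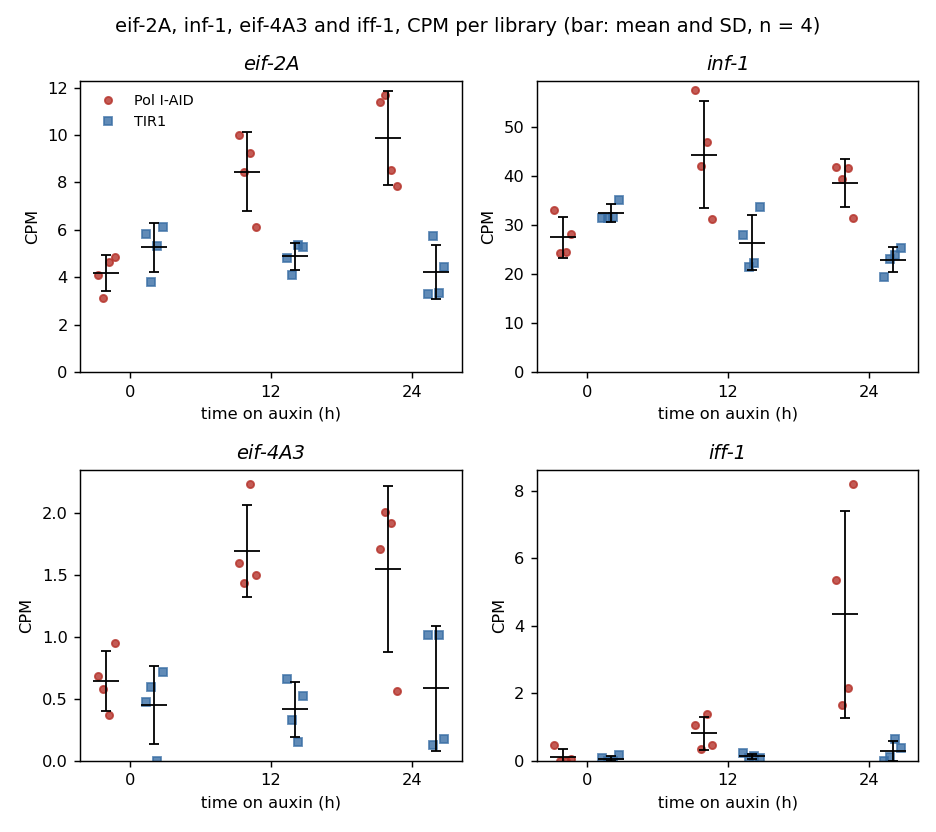
CPM in each library for eif-2A, inf-1, eif-4A3 and iff-1 at 0, 12 and 24 h on auxin, Pol I-AID (circles) left of TIR1 (squares), with mean and SD of 4 libraries. For eif-2A all Pol I-AID points at 12 and 24 h lie above all TIR1 points, and for iff-1 the 24 h Pol I-AID points spread from 1.64 to 8.21 CPM.

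The sum of the 8 elongation genes stood apart between the strains at 24 h. It was 19000 ± 1180 CPM in Pol I-AID, against 13400 ± 973 CPM in TIR1 (SD, n = 4 each), with no overlap (18100 to 20600 against 12100 to 14200). The 12 h sums were 15100 ± 1560 CPM in Pol I-AID, against 14100 ± 875 CPM in TIR1, and the 0 h sums 14300 ± 1420 CPM, against 13800 ± 1120 CPM. Without eef-2 the 24 h sums were 4850 ± 201 CPM in Pol I-AID, against 4150 ± 248 CPM in TIR1.

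eef-2, which encodes the translocase, had 15500, 14500, 13200 and 13500 CPM in Pol I-AID at 24 h, against 9920, 9850, 9040 and 8230 CPM in TIR1. At 12 h the values were 13000, 10800, 10500 and 9430 CPM against 11000, 9650, 10100 and 9090 CPM, and at 0 h 10700, 11200, 8450 and 9720 CPM against 9880, 10800, 8650 and 9730 CPM. All Pol I-AID libraries exceeded all TIR1 libraries at 24 h, with overlap at the earlier times. The log2 fold change was 0.04 ± 0.11 at 0 h (FDR = 0.955), 0.14 ± 0.11 at 12 h (FDR = 0.629) and 0.61 ± 0.11 at 24 h (1.53-fold, FDR = 0.000304). The rise of the strain difference to 24 h was 0.57 ± 0.15 (FDR = 0.0189). The 24 h difference kept FDR at or under 0.00785 in every alternative and was lost only to the study's added threshold of 2-fold. The interaction lost its call in 7 of 32 alternatives, with FDR up to 0.144 (without replicate 3 of every group, 0.52). These included leaving out TIR1 0 h replicate 2 (0.48, FDR = 0.0738) or TIR1 24 h replicate 3 (0.51, FDR = 0.0676). Among the strains outcrossed 3 times it was 0.57 (FDR = 0.0505).

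eef-1G, the gamma subunit that anchors the eEF1B complex, moved less. It had 3370, 3250, 3290 and 3080 CPM in Pol I-AID at 24 h, against 2780, 2880, 2600 and 2300 CPM in TIR1, and its group means at 0 and 12 h lay between 2450 and 2630 CPM in both strains. The 24 h groups did not overlap and the log2 fold change was 0.3 ± 0.09 (1.23-fold, FDR = 0.0307), but the interaction of 0.24 ± 0.13 was not called (FDR = 0.31). The call was lost in 14 of 24 alternatives, among them leaving out Pol I-AID 24 h replicate 1, 2 or 3 (0.28 to 0.3, FDR = 0.0669 to 0.0807) or TIR1 24 h replicate 3 or 4 (0.24 to 0.26, FDR = 0.123 to 0.133). Without replicate 1 the value was 0.3 (FDR = 0.1).

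The eEF1B exchange subunits did not show the pattern of eef-2. eef-1B.1 had 700, 472, 623 and 602 CPM in Pol I-AID at 24 h, against 438, 661, 882 and 782 CPM in TIR1, and a log2 fold change of -0.21 ± 0.27 (FDR = 0.691). Its libraries ranged as widely at 0 h, with 478, 440, 789 and 360 CPM in Pol I-AID against 596, 532, 528 and 405 CPM in TIR1, and at 12 h, with 388, 422, 668 and 828 CPM against 346, 861, 577 and 548 CPM. eef-1B.2 had 15.6, 13.1, 18.1 and 13.6 CPM in Pol I-AID at 24 h, against 17.3, 15.5, 18.5 and 16.3 CPM in TIR1. Both genes overlapped between the strains at all times. For eef-1B.2 the log2 fold change was 0.07 ± 0.21 at 0 h, -0.22 ± 0.21 at 12 h and -0.16 ± 0.21 at 24 h, and its libraries spanned 8.53 to 18.1 CPM in Pol I-AID and 10.7 to 20.2 CPM in TIR1 at 12 h.

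**Figure D4:**
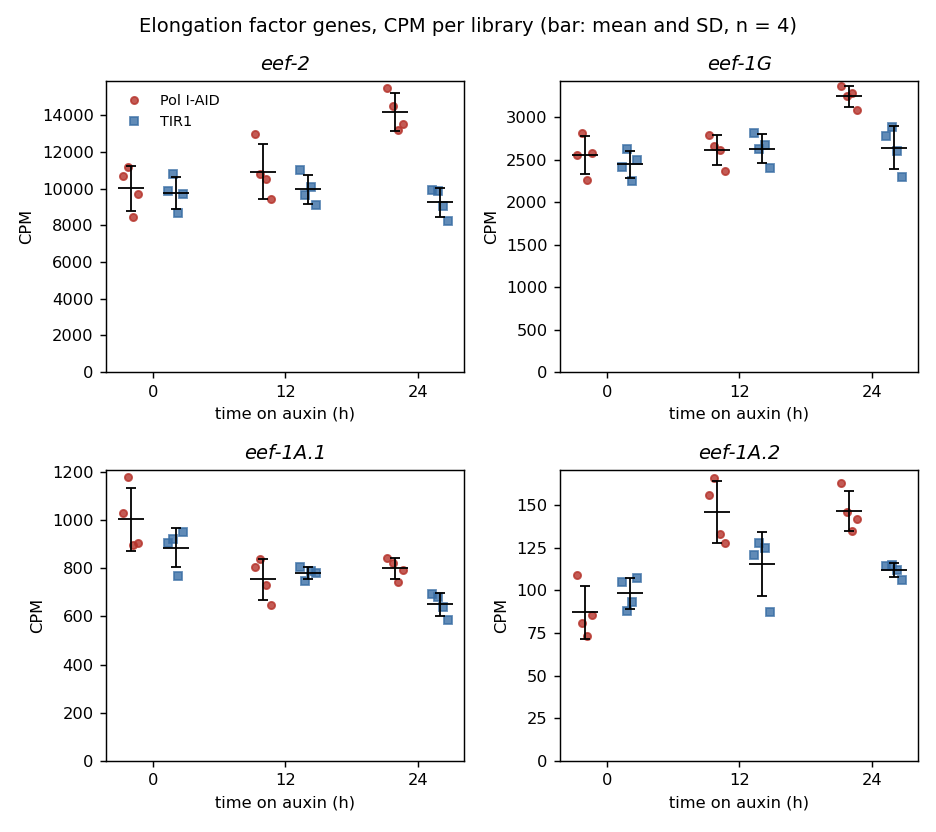
CPM in each library for eef-2, eef-1G, eef-1A.1 and eef-1A.2 at 0, 12 and 24 h on auxin, Pol I-AID (circles) left of TIR1 (squares), with mean and SD of 4 libraries. At 24 h the Pol I-AID and TIR1 points do not overlap for any of the 4 genes, and all 24 h points of eef-1A.1 lie below all 0 h points in both strains.

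The eEF1A genes encode nearly the same protein and share sequence, so uniquely mapped reads may be divided unevenly between them. eef-1A.1 had 841, 824, 742 and 795 CPM in Pol I-AID at 24 h, against 694, 681, 639 and 585 CPM in TIR1. At 12 h it had 804, 837, 730 and 647 CPM against 806, 748, 789 and 780 CPM, and at 0 h 1030, 1180, 898 and 906 CPM against 905, 923, 766 and 952 CPM. The strains were apart at 24 h alone, where the log2 fold change was 0.3 ± 0.11 (FDR = 0.0575). eef-1A.2 had 163, 146 and 135 CPM in Pol I-AID replicates 1 to 3 at 24 h and between 135 and 146 CPM in replicate 4, against 114, 115, 112 and 106 CPM in TIR1. At 12 h it had 156, 166, 133 and 128 CPM against 121, 128, 125 and 87.3 CPM, and at 0 h 109, 80.7, 73 and 85.3 CPM against 105, 87.7, 92.9 and 107 CPM. Its groups were apart at 12 and 24 h, in neither case past the threshold, with 0.34 ± 0.13 (FDR = 0.162) and 0.39 ± 0.13 (FDR = 0.0531). Both 24 h values sat close to the threshold and passed it in 4 alternatives each. The interaction of eef-1A.2 to 24 h, 0.57 ± 0.19 (FDR = 0.066), passed without Pol I-AID 0 h replicate 1 (0.69, FDR = 0.022).

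The balance of the pair can be read within each library, free of scaling. eef-1A.2 gave 9.58%, 6.38%, 7.51% and 8.61% of the pair's counts in Pol I-AID at 0 h, against 10.4%, 8.68%, 10.8% and 10.1% in TIR1. At 12 h the shares were 16.3%, 16.6%, 15.4% and 16.5% against 13.1%, 14.6%, 13.6% and 10.1%. At 24 h they were 16.2%, 15%, 15.4% and 15.2% against 14.1%, 14.4%, 14.9% and 15.3%. Apart from TIR1 12 h replicate 4, every library after auxin had a higher share than every 0 h library, and the strains were apart only at 12 h. The log2 ratio of eef-1A.2 to eef-1A.1 in Pol I-AID minus that in TIR1 was -0.36 at 0 h, 0.4 at 12 h and 0.09 at 24 h. A two-sided exact permutation test of 4 against 4 libraries, whose smallest possible p is 0.0286, gave p = 0.0571, 0.0286 and 0.114, or 0.0857, 0.0857 and 0.114 adjusted over the 3 times. Without replicate 4 the 12 h difference was 0.26.

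**Figure D5:**
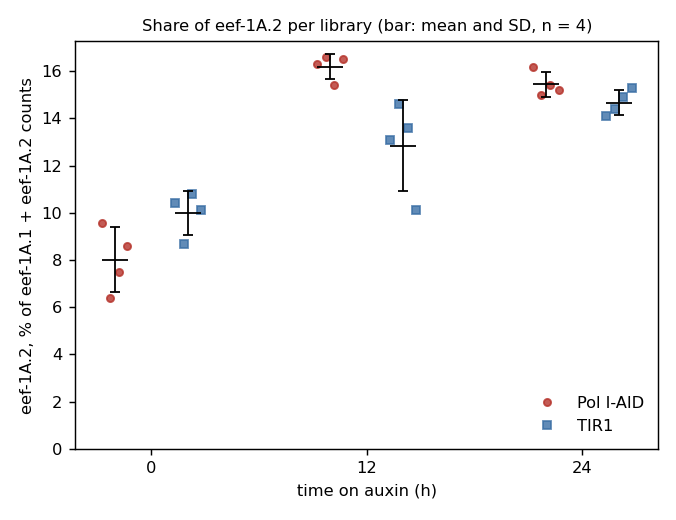
Share of eef-1A.2 in the counts of eef-1A.1 and eef-1A.2 together, in percent, for each library at 0, 12 and 24 h on auxin, Pol I-AID (circles) left of TIR1 (squares), with mean and SD of 4 libraries. Pol I-AID libraries lie at 6.38% to 9.58% at 0 h and at 15.4% to 16.6% at 12 h, and the strains overlap at 0 and 24 h.

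The eIF5A genes differed from each other. iff-2, the major one here, had 41.7, 38.4, 38 and 37.5 CPM in Pol I-AID at 24 h, against 25.2, 38, 48.6 and 45.6 CPM in TIR1, with log2 fold changes of 0 ± 0.2 at 0 h, -0.1 ± 0.2 at 12 h and -0.03 ± 0.2 at 24 h. At 12 h it had 34.2, 35.9, 44 and 49.1 CPM against 26, 58.9, 46.5 and 43.4 CPM, and at 0 h 44.9, 40.4, 56.3 and 42.7 CPM against 48, 47.3, 41.2 and 47.5 CPM. iff-2 thus overlapped between the strains throughout.

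iff-1 encodes the eIF5A known for its role in the germ line. It had 5.36, 1.64, 2.15 and 8.21 CPM in Pol I-AID at 24 h (31 to 88 counts), against 0, 0.124, 0.647 and 0.392 CPM in TIR1 (0 to 12 counts). At 12 h it had 1.05, 0.337, 1.39 and 0.474 CPM, against 0.22, 0.0829, 0.154 and 0.0747 CPM, and at 0 h 0.459, 0, 0 and 0.0452 CPM, against 0.0957, 0, 0 and 0.16 CPM. Pol I-AID libraries stood above all TIR1 libraries at 12 and 24 h, and nearly every count was near 0 before auxin. The log2 fold change was 3.6 ± 0.8 at 24 h (FDR = 0.00292), 2.59 ± 0.84 at 12 h (FDR = 0.0745) and 0.38 ± 1.17 at 0 h. Filtered on the compared groups alone, iff-1 had counts enough only where Pol I-AID 24 h, the group in which it was highest, was among them, so whether it was tested was not independent of that group's level. Over the other 5 groups together it also passed. The 24 h call held in all 23 alternatives that tested the gene, with values of 3.12 (without Pol I-AID 24 h replicate 4) to 4.36 (without replicate 3 of every group). The interaction to 24 h, 3.23 ± 1.51, was not called (FDR = 0.21) and passed without Pol I-AID 0 h replicate 1 (5.75, FDR = 0.0251), which held 8 of the 9 counts of that group. Germline and oocyte markers, all 23 of which were detected somewhere in the series, summed to 68.8 to 100 ppm in Pol I-AID and 83.4 to 95.8 ppm in TIR1 at 24 h. Of the 9 that could be tested, 0 were higher and 1 was lower in Pol I-AID, with a median of -0.5. The sum rested mainly on cgh-1 (24 h medians of 12.1 CPM in Pol I-AID and 16.5 in TIR1) and car-1 (3.92 and 3.42). In Pol I-AID at 24 h the medians of glp-1, mex-5 and pos-1 were 0. Single markers went both ways, with glh-1 at 1.54 CPM against 0.534 in TIR1 and chs-1 at 0.189 against 0.839. Their relation to iff-1 was not tested.

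No difference in the release factors passed the test. erfa-1 had 3.78, 5.62, 5.6 and 4.25 CPM in Pol I-AID at 24 h, against 5.35, 4.72, 3.07 and 5.36 CPM in TIR1. It had 5.25, 6.4, 5.55 and 4.01 CPM at 12 h, against 6.09, 5.31, 4.89 and 5.19 CPM, and 6.43, 8.47, 4.14 and 6.11 CPM at 0 h, against 3.54, 5.42, 5.55 and 5.69 CPM. The strains overlapped at each time, with log2 fold changes of 0.32 ± 0.23, -0.02 ± 0.23 and 0.08 ± 0.24 at 0, 12 and 24 h. The 95% interval at 24 h, -0.42 to 0.58, leaves out a 2-fold difference in either direction.

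erfa-3 had 7.98, 7.21, 10.5 and 11.3 CPM in Pol I-AID at 24 h, against 12, 7.77, 5.61 and 7.84 CPM in TIR1. It had 7.06, 8.75, 7.74 and 9.02 CPM at 12 h, against 6.81, 6.26, 6.2 and 6.61 CPM, and 6.55, 9.06, 6.77 and 8.95 CPM at 0 h, against 7.32, 7.47, 5.07 and 8.69 CPM. At 12 h alone the groups did not overlap, with 0.33 ± 0.2 (FDR = 0.487), and at 24 h the value was 0.19 ± 0.21, with a 95% interval of -0.24 to 0.63. Neither release gene was called in any of the 9 comparisons, by edgeR or by DESeq2, and none had an unadjusted p under 0.05.

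Change over time was then followed within each strain. These comparisons share their 0 h libraries with the interactions and with each other. Within a strain, worms grew older as the time on auxin rose, so adult age and auxin cannot be told apart. In TIR1 no member changed from 0 to 12 h, against 4.65% of all genes, and none had an unadjusted p under 0.05 or was called by DESeq2. By 24 h 1 of 35 had changed, against 16.3% of all genes (9.42% higher and 6.87% lower), and 0 with the 2-fold rule, against 9.71%. This was eef-1A.1, which fell by 0.45 ± 0.11 on the log2 scale (FDR = 0.00403), with all 24 h libraries below all 0 h libraries. Leaving out replicate 4 in every group gave -0.34 (FDR = 0.0632).

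In Pol I-AID 5 of 35 members changed from 0 to 12 h, 4 higher and 1 lower, 14.3% as in all genes (14.3%), and 9 of 35 from 0 to 24 h, 6 higher and 3 lower, 25.7% against 27.8%. Of all genes 7.91% were higher and 6.35% lower at 12 h, and 15.2% and 12.6% at 24 h. With the 2-fold rule 2 members were called at each time, against 8.13% and 17.4% of all genes. Elongation factors made up 3 of the 5 and 5 of the 9, out of 8 genes. Without iff-1, 4 of 34 members (11.8%) were called at 12 h and 8 of 34 (23.5%) at 24 h. eef-1A.2 rose by 12 h (0.75 ± 0.13, FDR = 0.000238) and was as high at 24 h (0.75 ± 0.13, FDR = 9.91e-05), and its FDR stayed at or under 0.0165 in every alternative, though the change stayed under 2-fold, while eef-1A.1 fell by 0.41 ± 0.11 at 12 h (FDR = 0.00746) and by 0.33 ± 0.11 at 24 h (FDR = 0.0206). The fall of eef-1A.1 was lost without Pol I-AID 0 h replicate 2, at 12 h (-0.32, FDR = 0.0538) and at 24 h (-0.24, FDR = 0.117), and at 24 h also without Pol I-AID 0 h replicate 1 (-0.31, FDR = 0.0502) or Pol I-AID 24 h replicate 3 (-0.29, FDR = 0.0715). eef-2 rose by 24 h (0.5 ± 0.11, FDR = 0.000853), as did eef-1G (0.34 ± 0.09, FDR = 0.00553), whose call was lost without replicate 1 (0.31, FDR = 0.0539) or replicate 3 (0.25, FDR = 0.154) of every group. iff-1 rose by 2.86 ± 0.88 at 12 h (FDR = 0.0274) and by 5.27 ± 0.88 at 24 h (FDR = 4.28e-05), against a 0 h group with 9 counts in all. Without Pol I-AID 0 h replicate 1 these fitted values became 5.39 and 7.79. The 12 h rise of iff-1 was lost without any 1 of Pol I-AID 0 h replicates 2, 3 and 4 or Pol I-AID 12 h replicates 1 and 3, at FDR of 0.0684 to 0.0911.

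Of the initiation factors in Pol I-AID, eif-2A rose by 1.02 ± 0.22 at 12 h (FDR = 0.00136) and 1.24 ± 0.22 at 24 h (FDR = 7.56e-05), and both calls held in all alternatives. inf-1 rose by 0.69 ± 0.17 at 12 h (FDR = 0.00527) and 0.49 ± 0.17 at 24 h (FDR = 0.0319). The 12 h rise of inf-1 was lost without replicate 2 or 3 of every group (0.66 and 0.63, FDR = 0.0603 and 0.075). The 24 h rise was lost without any 1 of Pol I-AID 0 h replicates 2, 3 and 4 or Pol I-AID 24 h replicates 1, 2 and 3, at FDR of 0.0555 to 0.0957. In TIR1, inf-1 had -0.49 ± 0.17 from 0 to 24 h (FDR = 0.0521), with every 24 h library below every 0 h library.

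A pair of subunits of the multi-protein initiation complexes fell in Pol I-AID by 24 h. eif-2alpha had 0.731, 1.8, 1.53 and 2.26 CPM at 24 h, against 3.79, 3.41, 2.05 and 3.21 CPM at 0 h, and fell by 0.99 ± 0.3 (FDR = 0.0152). In TIR1 it had 2.8, 2.92, 3.07 and 2.18 CPM at 24 h, against 4.83, 4.91, 6.51 and 3.08 CPM at 0 h, a difference of -0.78 ± 0.3 (FDR = 0.0791), and the interaction of -0.2 ± 0.42 was not called (FDR = 0.845). The eIF3 subunit gene eif-3.C had 5.79, 5.25, 4.92 and 6.98 CPM at 24 h in Pol I-AID, against 10.3, 12, 6.31 and 10.7 CPM at 0 h, and fell by 0.78 ± 0.23 (FDR = 0.0116). Its level in TIR1 was 3.56, 6.77, 6.31 and 6.79 CPM at 24 h, against 6.65, 6.11, 4.82 and 6.45 CPM at 0 h, and the interaction of -0.76 ± 0.33 was not called (FDR = 0.165). The 0 h level of eif-3.C was 9.82 ± 2.44 CPM in Pol I-AID, against 6.01 ± 0.819 CPM in TIR1, a strain difference of 0.69 ± 0.23 before auxin that was not called (FDR = 0.262). The call of eif-2alpha was lost without Pol I-AID 24 h replicate 1 (-0.74, FDR = 0.0721) or replicate 1 of every group (-0.66, FDR = 0.184), and that of eif-3.C without replicate 2 of every group (-0.63, FDR = 0.102).

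Beside the members stands a list of 47 further translation genes, of which 40 were matched and 37 tested. Of these, 3 were higher and 1 lower in Pol I-AID at 12 h, 10.8% called against 5.39% of all genes, and 4 were higher and 3 lower at 24 h, 18.9% against 13.8%. At 12 h abcf-2 (0.84 ± 0.19, FDR = 0.00997) and abcf-1 (1.09 ± 0.24, FDR = 0.00619), of a family of ATPases that bind ribosomes, were higher, and abcf-2 was higher at 24 h too (18.2 ± 2.78 CPM in Pol I-AID, against 7.65 ± 1.28 CPM in TIR1, 1.25 ± 0.2, FDR = 0.000107). eif-6, which keeps the large subunit from joining too early and works in its maturation, was higher at 12 h (1.35 ± 0.4, FDR = 0.047). For eif-6 the interaction to 12 h, 1.29 ± 0.6, was not called (FDR = 0.382), nor was the strain difference at 24 h (0.46 ± 0.4, FDR = 0.502). Its TIR1 mean was 1.91 CPM at 12 h and 4.52 CPM at 24 h. pek-1, the kinase that phosphorylates eIF2 alpha under stress in the endoplasmic reticulum, was lower at 12 h (-0.84 ± 0.21, FDR = 0.0156) and at 24 h, with 5.76 ± 0.726 CPM in Pol I-AID, against 14.7 ± 3.94 CPM in TIR1 (-1.33 ± 0.22, FDR = 0.000137). atf-4, a transcription factor made when eIF2 activity is low, was higher at 24 h, with 215 ± 12.1 CPM in Pol I-AID, against 138 ± 14.2 CPM in TIR1 (0.64 ± 0.11, FDR = 0.000254).

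The other genes of that list called higher at 24 h were the poly(A)-binding protein gene pab-1 (0.32 ± 0.1, FDR = 0.0389) and the cap-binding complex gene ncbp-1 (0.86 ± 0.25, FDR = 0.0197). The mitochondrial elongation factor genes tufm-1 (-1.4 ± 0.32, FDR = 0.00389) and tsfm-1 (-2.09 ± 0.51, FDR = 0.00639) were called lower. Their 24 h levels were low, at 0.545 against 1.48 CPM in TIR1 for tufm-1 and 0.399 against 1.74 CPM for tsfm-1. Before auxin both were already lower without being called, at -0.42 ± 0.26 and -1.05 ± 0.39. Neither interaction to 24 h was called, with -0.97 ± 0.41 for tufm-1 (FDR = 0.158) and -1.05 ± 0.64 for tsfm-1 (FDR = 0.377). In the interactions, abcf-2 was called to 12 h (1.08 ± 0.28, FDR = 0.0293) and abcf-2, atf-4, pab-2 and pek-1 were called to 24 h. At 24 h, 11 of 31 tRNA synthetases were higher and 0 lower, 35.5% called against 13.8% of all genes, with a median of 0.27. Of 78 ribosomal protein genes 1 was higher and 6 were lower at 24 h, a share called of 8.97%, under that of all genes. Their median was 0.53 at 0 h, 0.23 at 12 h and -0.86 at 24 h, so the sign before auxin was opposite to that at 24 h. From 0 to 24 h their median was 1.11 in TIR1, with 13 higher and 2 lower (19.2% called, against 16.3% of all genes). In Pol I-AID it was -0.41, with 1 higher and 2 lower (3.85% called, against 27.8%).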

How the data were processed

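Intestines dissected from day 1 adults gave 24 libraries (4 per group, described as independent biological replicates), sequenced as mRNA without molecular identifiers. The authors trimmed reads, aligned them to the ce10 genome with QuasR, kept unique hits and counted them over annotated exons on the sense strand, and the deposited table holds these raw read counts per gene with the exon length. Both mates appear to have been counted, since 70.1% to 82.4% of counts from 1 to 10 were even in each library, so counts overstate the number of molecules. The 3-count floors treat counts as independent, so they are too low if both mates were counted. They cover counting error only, whereas SEs and 95% intervals of fold changes include the spread between libraries. No counts came from columns of other series.

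Gene symbols came from WormBase identifiers through a name table, and 94.1% of identifiers matched. Counts were analysed in R 4.3.3 with edgeR 4.0.16: filterByExpr over the 6 groups (6903 genes kept), TMM scaling and a quasi-likelihood F-test in one model of 6 group means (18 residual degrees of freedom), with Benjamini-Hochberg adjustment over all genes tested in each of 9 comparisons. SE is the log2 fold change divided by the square root of F. The study's own rule adds a 2-fold change and was kept as an alternative. Analysis code was tested on simulated data. The pair ratio used log2 of counts plus 0.5.

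Genes given with every library value were members called in a strain comparison or interaction (12 at most) and all tested elongation and release factors, plus eif-2alpha and eif-3.C, called over time. Subunits of eIF2, eIF2B, eIF3 and eIF4F, the eIF4E and eIF5A genes and the called genes of the further list were given with fold changes. The members and lists were chosen with earlier results of these data known. Alternatives were another scaling, 2 other filters, vitellogenins removed, DESeq2 1.42.0, the compared groups alone, terms for replicate, outcrossing and exon length, and leaving out replicates or libraries. No sequences or coordinates are given, since the builds of the table and the reference differ.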

Additional observations from a re-analysis of the deposited data

Results flagged for a closer look

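In 114 groups of 4 libraries, made of 15 genes, the 3 class sums and the eEF1A log2 ratio in 6 groups each, 6 held a library whose gap to the rest was large for the range of the group, where chance gives about 1 in 20. They were inf-1 in TIR1 0 h replicate 4 (35.1 CPM, others 31.3 to 31.6), eif-3.C in TIR1 24 h replicate 1 (3.56 CPM, others 6.31 to 6.79), iff-1 in Pol I-AID 0 h replicate 1 (0.459 CPM, others 0 to 0.0452), iff-2 in TIR1 0 h replicate 3 (41.2 CPM, others 47.3 to 48), erfa-1 in TIR1 0 h replicate 1 (3.54 CPM, others 5.42 to 5.69) and the initiation factor sum in TIR1 0 h replicate 3 (85.9 CPM, others 95.5 to 96.6). Of these, 3 were in the shallow libraries TIR1 0 h replicate 3 and TIR1 24 h replicate 1, and the part of depth was not tested.

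The strains differed in their change from 0 h, by the interaction term of the edgeR model, for eif-2A to 12 h (1.12) and to 24 h (1.54), for inf-1 to 12 h (0.99) and to 24 h (0.98), and for eef-2 to 24 h (0.57), all on the log2 scale as the change in Pol I-AID minus that in TIR1.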

How the results depend on the processing

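Of the 28 calls of single members over 9 comparisons, 5 held in every alternative, 23 were lost in at least 1 and 0 reversed. The alternatives include the study's 2-fold rule, under which every call of less than 2-fold is lost by definition. The count of 23 is therefore no measure of how fragile the calls were. The count of members called was 5 at 24 h and 3 at 12 h between the strains, and under the study's rule of FDR and 2-fold it was 2 and 1. That rule gave 1 member each for the interactions to 12 and 24 h, 0 for TIR1 from 0 to 24 h, and 2 each for Pol I-AID from 0 to 12 and from 0 to 24 h. With the compared groups alone, the strain comparison at 12 h called 1 member, the interaction to 12 h 0 and TIR1 from 0 to 24 h 2. Over all genes this setting called 169 of 6028, 128 of 6637 and 920 of 5756. The main fit called 372, 203 and 1124 of 6903. The interaction to 12 h called 1 member without a filter, and 1 when the shallow libraries were left out, a setting chosen after seeing the data. Over all genes these called 335 of 16110 and 176 of 7094. TIR1 from 0 to 24 h called 2 members without a filter, with at least 10 counts in every library, with a term for outcrossing and with the exon length trend removed, with or without the replicate block. Over all genes, 1160 of 16110 were called without a filter and 838 of 2629 with at least 10 counts. The outcrossing term gave 1145 of 6903, and the exon length setting 1131 with the block and 1114 without it. Leaving out replicates or single libraries gave 0 to 0 members at 0 h, 0 to 2 at 12 h and 4 to 6 at 24 h between the strains, 0 to 2 and 1 to 5 for the interactions to 12 and 24 h, 0 to 0 and 0 to 2 for TIR1, and 3 to 6 and 5 to 10 for Pol I-AID to 12 and 24 h. With 1 replicate left out of every group, calls over all genes between the strains fell from 372 to 130 to 251 at 12 h. At 24 h they fell from 952 to 507 to 689. For the interactions they fell from 203 to 40 to 187 and from 529 to 236 to 442. The eEF1A ratio at 12 h ranged from 0.26 to 0.47, each with p = 0.1, the smallest that an exact permutation test of 3 against 3 allows. The causes were not tested.

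Taken over all genes tested, same-numbered libraries of the strains deviated together little. Of 12 pairs, 2 correlated above 0.1 (range -0.05 to 0.17) and 5 libraries matched their own number best. This average does not speak for single members. For the elongation factor sum, replicate 2 was highest and replicate 3 lowest in both strains at 0 h. At 12 h replicate 1 was highest and replicate 4 lowest in both. Pairing was not tested for single genes. With the replicate block the interaction to 12 h called 1 member instead of 2, the only count of members that this changed by over 1.5 times. Over all genes that interaction called 232 instead of 203.

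Depth limits the initiation factors most: 6 of 31 could not be tested, and genes with a few counts per library have wide intervals. The shallow TIR1 libraries at 0 and 24 h hold few counts of these genes. Rank by level was the same outside the vitellogenins except for neighbouring pairs.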
